A study of Homo sapiens with 6 samples.

Results

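The death receptor pathway, with 5 genes, and the BCL2 family, with 5 more, were examined in the human bladder cancer line T24. They were the receptors FAS, TNFRSF10A and TNFRSF10B, the adaptor FADD and the initiator caspase CASP8, and the BCL2 family genes BBC3, PMAIP1, MCL1, BCL2L1 and BAX. The members were listed by symbol, and all 10 had a row among the 11079 genes of the deposited table. Expression was measured by RNA-seq in 6 libraries. In 3 of them the cells carried a stably integrated control hairpin (shControl), with the genotype labelled as WT. The other 3 came from cells with a hairpin against the long noncoding RNA BLACAT3 (shBLACAT3), labelled as its knockdown. Cells of both groups were of the same line, had been infected with lentivirus and had been selected with puromycin, and the labels name 1 hairpin construct per group and do not say whether the replicates were separate cultures. The p-values therefore describe the spread of these libraries alone, and that spread may be technical.

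Cells can be driven into apoptosis from outside or from within. In the extrinsic pathway FAS and the TRAIL receptors TNFRSF10A (DR4) and TNFRSF10B (DR5) bind ligands of the TNF family, gather the adaptor FADD and activate caspase-8. In the intrinsic pathway the BH3-only protein BBC3 (PUMA) binds the guardians MCL1 and BCL2L1 (BCL-XL), and the BH3-only protein PMAIP1 (NOXA) binds mainly MCL1. The effectors BAX and BAK1 permeabilize the outer mitochondrial membrane. FAS, the TRAIL receptors and PMAIP1 can be induced by interferon or stress.

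In shBLACAT3 cells 6 of the 10 genes fell and 0 rose, where 9.37% of all 10008 tested genes passed the same threshold, 6.80% lower and 2.57% higher. PMAIP1, BBC3 and FAS stood at 49.9%, 49.2% and 48.5% of their shControl mean, TNFRSF10B at 74.9%, MCL1 at 82.4% and FADD at 81.3%. TNFRSF10A, CASP8, BCL2L1 and BAX did not pass the threshold, an adjusted p under 0.05 in limma over all tested genes. All 10 genes had a negative log2 fold change, beside 5061 of all 10008 tested genes. The median log2 fold change of the 10 genes was -0.28, beside -0.0025 over all tested genes. The 3 shControl and the 3 shBLACAT3 libraries did not overlap in 7 of the 10 genes, beside 32.8% of all tested genes. All 10 genes passed the filter on low values, which kept genes whose 6 libraries averaged 1 FPKM or more. The members were chosen with earlier results of these data known, so the share of calls among them is a description. Values are FPKM, fragment numbers scaled to transcript length and library size, and fold changes are of log2(FPKM + 1), a scale on which the changes of low genes look smaller than they are.

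**Figure D1:**
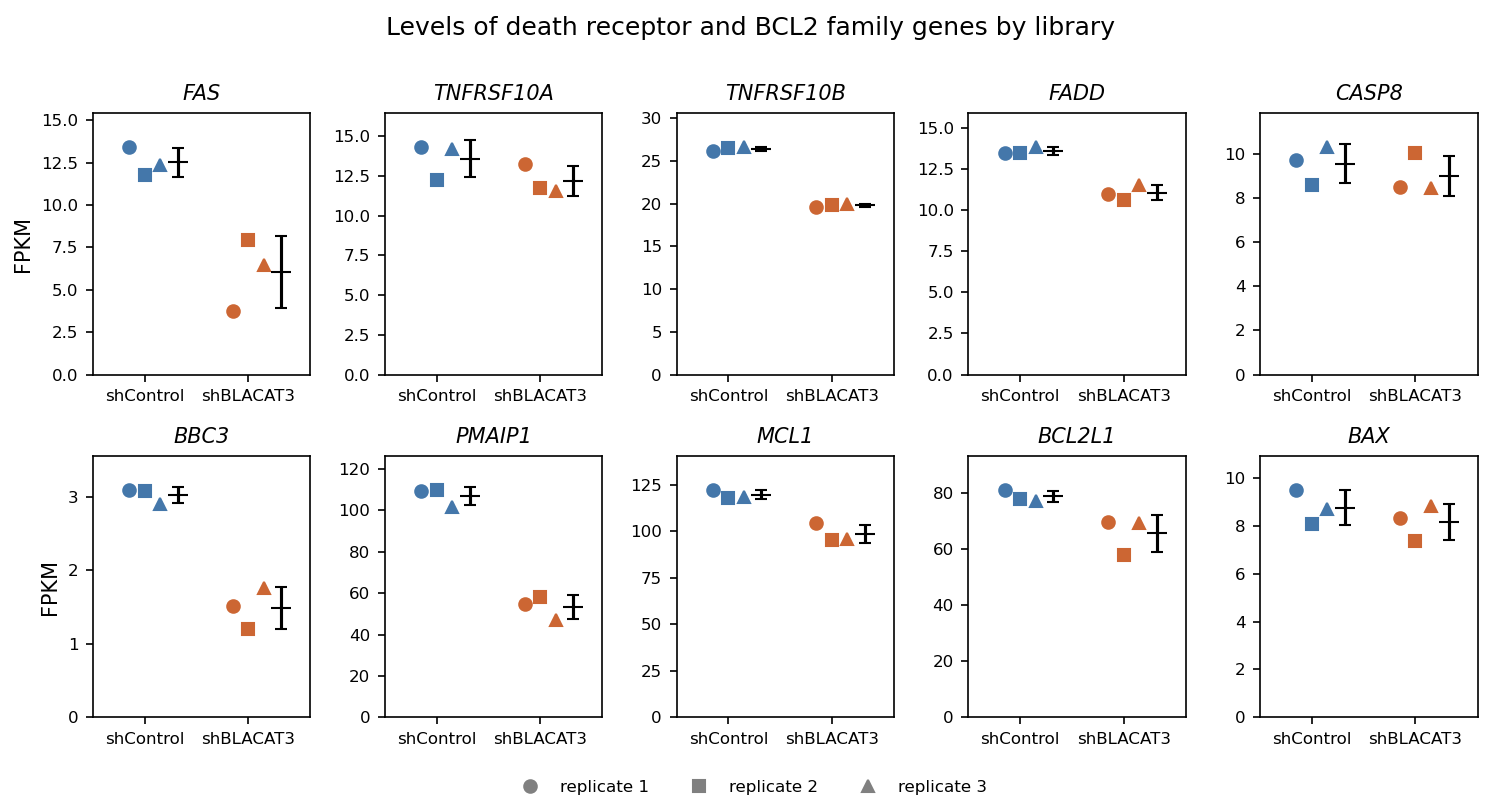
FPKM (vertical axis, from 0) of the 10 genes in each shControl and shBLACAT3 library, with marker shapes for replicates 1 to 3 and black bars for the mean and SD of the 3 libraries. In FAS, TNFRSF10B, FADD, BBC3, PMAIP1, MCL1 and BCL2L1 all 3 shBLACAT3 libraries lie below all 3 shControl libraries, and in TNFRSF10A, CASP8 and BAX the groups overlap.

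The summed values of the 6 libraries lay between 211958 and 226953 FPKM, and the read depth behind them is unknown. Values of exactly 0 were listed for 17 to 19 genes in the shControl libraries and for 43 to 65 in the shBLACAT3 libraries. BLACAT3 itself was not analysed here, so the group labels were not checked against its level. Of 8 epithelial and urothelial markers KRT19, CDH1, EPCAM and GATA3 had no row among the genes analysed, and KRT7, KRT8, KRT18 and ITGB4 had values. Of these 4 markers 3 fell in limma, while KRT7 averaged 20.0 ± 5.62 FPKM in shControl and 32.0 ± 3.45 in shBLACAT3 cells (SD, n = 3), with higher values in all 3 shBLACAT3 libraries, and did not pass (adjusted p 0.097). The simple keratin KRT8 averaged 60.7 ± 4.78 FPKM in shControl and 22.1 ± 2.41 in shBLACAT3 cells (SD, n = 3), and the part of these markers in the results below was not tested. None of 8 markers of leukocytes, endothelium and mural cells had a row among the genes analysed either. In bulk RNA, fewer cells that express a gene and less of its RNA per cell cannot be told apart.

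FAS (ENSG00000026103.21_3), the receptor for FAS ligand, measured 13.4, 11.8 and 12.4 FPKM in shControl replicates 1, 2 and 3 and 3.78, 7.97 and 6.48 FPKM in shBLACAT3 replicates 1, 2 and 3. Every shBLACAT3 library was below every shControl library, and shBLACAT3 replicate 1 was the lowest of all. The 3 shBLACAT3 values spread over a 2.11-fold range, the widest within a group among the 10 genes, with a coefficient of variation of 35.0% beside 6.77% in shControl. FAS fell by 0.98 on the log2 scale (SE 0.22, 95% interval -1.51 to -0.45, adjusted p 0.041 in limma). Among the fits with 1 library left out, the call of FAS was lost without shControl replicate 1, 2 or 3 (adjusted p 0.14, 0.11 and 0.12 in limma) or shBLACAT3 replicate 3 (0.055), and the log2 change ran from -1.18 to -0.72 over the 6 libraries left out in turn. By its log2 change FAS ranked 141 from the lowest of the 10008 tested genes.

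Promoter sequence is shown for FAS, PMAIP1 and BBC3, which fell by the most, and for BAX, one of the 4 genes that did not pass. Whether these sequences bear on the changes was not tested. The windows are the 250 bases before the transcript start in RefSeq (GRCh38.p14), taken at the farthest upstream start where several are listed. Capitals mark 3 motifs on either strand, the E-box CACGTG, the GC box GGGCGG and the AP-1 site TGANTCA. Of 35114 windows of the same length 6.35% hold an E-box, 42.6% a GC box and 6.57% an AP-1 site. A match is a description of the letters, not a bound site. The FAS window (chr10:88990548-88990797, plus strand) held an AP-1 site that begins 242 bases before the start and a GC box that begins 60 bases before it.
FAS promoter: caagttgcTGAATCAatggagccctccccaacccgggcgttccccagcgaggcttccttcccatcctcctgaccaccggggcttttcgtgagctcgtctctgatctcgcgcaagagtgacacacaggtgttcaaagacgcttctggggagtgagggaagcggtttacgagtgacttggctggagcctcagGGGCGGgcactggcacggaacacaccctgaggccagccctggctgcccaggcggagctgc

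TNFRSF10B (ENSG00000120889.12_2), the DR5 receptor for TRAIL, measured 26.2, 26.5 and 26.6 FPKM in shControl replicates 1, 2 and 3 and 19.6, 19.8 and 19.9 FPKM in shBLACAT3 replicates 1, 2 and 3. The libraries of each group lay closer together than in any other of the 10 genes, with coefficients of variation of 0.90% and 0.87%, and the groups did not overlap. TNFRSF10B had a log2 fold change of -0.40 with an SE of 0.05 (adjusted p 0.0059 in limma) and passed with any 1 library left out. TNFRSF10A (ENSG00000104689.9_2), the DR4 receptor for the same ligand, measured 14.3, 12.2 and 14.2 FPKM in shControl and 13.3, 11.7 and 11.5 FPKM in shBLACAT3 cells. These groups overlapped, and the log2 difference of -0.15 (95% interval -0.36 to 0.07, adjusted p 0.35 in limma) did not pass. The interval covers 0 and ends just short of the -0.40 of TNFRSF10B, whose own 95% interval (-0.52 to -0.28) overlaps with it. The difference between the changes of the TRAIL receptors was not tested. The ratio of TNFRSF10A to TNFRSF10B FPKM was 0.548, 0.462 and 0.534 in shControl and 0.677, 0.592 and 0.579 in shBLACAT3 replicates 1, 2 and 3, so that TNFRSF10B remained the more abundant of the TRAIL receptors in every library. All 3 shBLACAT3 ratios were above all 3 shControl ratios.

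FADD (ENSG00000168040.4_2), the adaptor that links the receptors to caspase-8, measured 13.5, 13.5 and 13.9 FPKM in shControl and 11.0, 10.6 and 11.5 FPKM in shBLACAT3 replicates 1, 2 and 3. The groups did not overlap, and FADD fell by 0.28 on the log2 scale with an SE of 0.06 (adjusted p 0.041 in limma). Of the fits with 1 library left out, those that ended its call were without shControl replicate 1, 2 or 3 (adjusted p 0.14, 0.13 and 0.16 in limma) or shBLACAT3 replicate 1 or 2 (0.11 and 0.074). Other settings that ended it included median scaling (0.067) and quantile normalization (0.057). CASP8 (ENSG00000064012.21_4), the initiator caspase that FADD recruits, measured 9.75, 8.61 and 10.3 FPKM in shControl and 8.49, 10.0 and 8.44 FPKM in shBLACAT3 cells. The highest shBLACAT3 library lay above 2 of the 3 shControl libraries. The log2 difference of CASP8 was -0.08 (95% interval -0.32 to 0.16, adjusted p 0.65 in limma).

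PMAIP1 (ENSG00000141682.11_2), which encodes the BH3-only protein NOXA that binds mainly MCL1, measured 109, 110.0 and 102 FPKM in shControl and 54.9, 58.2 and 47.0 FPKM in shBLACAT3 replicates 1, 2 and 3. The highest shBLACAT3 library was far below the lowest shControl library. PMAIP1 fell by 1.0 on the log2 scale (SE 0.09, 95% interval -1.21 to -0.79), and its adjusted p of 0.0012 in limma was the lowest of the 10 genes. It passed with any 1 library left out (adjusted p up to 0.011). Its promoter window (chr18:59899746-59899995, plus strand), with a GC content of 72.8%, held 4 GC boxes, which begin 146, 106, 94 and 82 bases before the start, and 7.63% of all windows hold at least 4.
PMAIP1 promoter: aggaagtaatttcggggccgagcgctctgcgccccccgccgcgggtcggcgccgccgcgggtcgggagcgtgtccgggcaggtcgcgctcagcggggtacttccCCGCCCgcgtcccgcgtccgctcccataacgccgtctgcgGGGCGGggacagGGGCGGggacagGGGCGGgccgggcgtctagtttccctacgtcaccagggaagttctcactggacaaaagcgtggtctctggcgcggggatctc

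BBC3 (ENSG00000105327.17_3), which encodes PUMA, a BH3-only protein that binds all the main guardians, was the least abundant of the 10 genes. It measured 3.10, 3.08 and 2.91 FPKM in shControl and 1.51, 1.20 and 1.76 FPKM in shBLACAT3 replicates 1, 2 and 3. The groups did not overlap, and the mean in shBLACAT3 cells was 50.8% below that in shControl cells. On the log2(FPKM + 1) scale BBC3 fell by 0.70 (SE 0.10, adjusted p 0.0093 in limma), less than PMAIP1 because the added 1 weighs more on a low level. It passed with any 1 library left out, though without shControl replicate 1 its adjusted p was 0.0499. The BBC3 window (chr19:47232668-47232917, minus strand) held an E-box that begins 232 bases before the start and an AP-1 site that begins 113 bases before it, and no GC box.
BBC3 promoter: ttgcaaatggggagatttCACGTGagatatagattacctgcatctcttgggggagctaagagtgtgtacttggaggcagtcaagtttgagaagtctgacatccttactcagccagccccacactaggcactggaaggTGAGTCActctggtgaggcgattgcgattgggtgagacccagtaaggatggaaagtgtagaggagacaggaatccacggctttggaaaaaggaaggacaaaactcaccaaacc

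**Figure D2:**
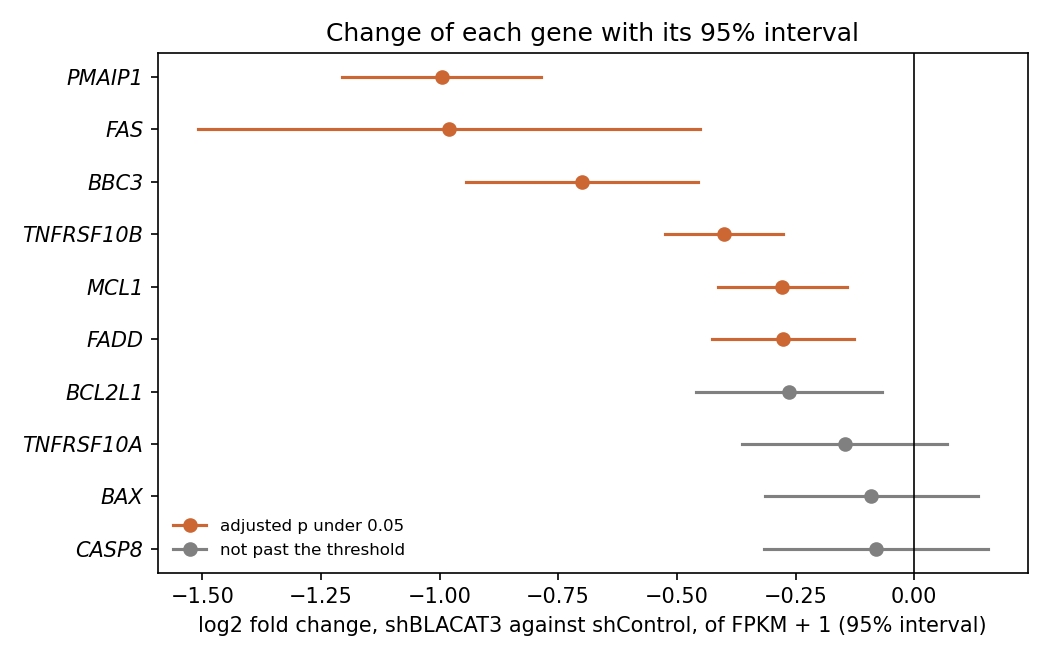
Log2 fold change of FPKM + 1 between shBLACAT3 and shControl cells (horizontal axis) for each gene, as points with the 95% interval of the limma fit, in orange where the adjusted p was under 0.05. PMAIP1 and FAS lie near -1 with a wider interval for FAS, and the intervals of TNFRSF10A, BAX and CASP8 cross 0.

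MCL1 (ENSG00000143384.12_2), a short-lived guardian, was the most abundant of the 10 genes in both groups. It measured 122, 118 and 118 FPKM in shControl and 104, 95.4 and 95.6 FPKM in shBLACAT3 replicates 1, 2 and 3, with no overlap. MCL1 fell by 0.28 on the log2 scale with an SE of 0.06 (adjusted p 0.031 in limma). With 1 library left out, the call of MCL1 was lost without shControl replicate 1, 2 or 3 (adjusted p 0.14, 0.11 and 0.11 in limma) or shBLACAT3 replicate 2 (0.067). Other settings that ended it included quantile normalization (0.083) and limma without the trend (0.056). BCL2L1 (ENSG00000171552.12_3), the gene of the guardian BCL-XL and of its shorter splice form BCL-XS, which one value per gene cannot separate, measured 81.3, 77.9 and 77.4 FPKM in shControl and 69.6, 58.1 and 69.4 FPKM in shBLACAT3 cells. The groups did not overlap, and the log2 difference of -0.26 was close to that of MCL1, but it had a larger SE (0.08) and did not pass over all genes (95% interval -0.46 to -0.07, unadjusted p 0.016, adjusted p 0.10 in limma). Under none of the 15 other settings tried did BCL2L1 pass.

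BAX (ENSG00000087088.19_3), an effector that forms pores in the outer mitochondrial membrane, measured 9.50, 8.06 and 8.71 FPKM in shControl and 8.31, 7.36 and 8.83 FPKM in shBLACAT3 replicates 1, 2 and 3. The groups overlapped, with shBLACAT3 replicate 3 above 2 of the 3 shControl libraries. The log2 difference was -0.09 (95% interval -0.31 to 0.13, adjusted p 0.59 in limma). That interval does not reach the values estimated for PMAIP1, BBC3, FAS and TNFRSF10B, but it covers those of the called genes FADD (-0.28) and MCL1 (-0.28). The BAX window (chr19:48954625-48954874, plus strand) held 4 E-boxes, which begin 138, 93, 45 and 14 bases before the start, and a GC box. Of the 35114 windows 5 (0.0142%) hold at least 4 E-boxes. The cut of 4 equals the count in the BAX window, so this share is a description and not a test. The windows of CASP8 and BCL2L1, which did not pass either, held 0 E-boxes, so the BAX window does not stand for the genes that did not pass.
BAX promoter: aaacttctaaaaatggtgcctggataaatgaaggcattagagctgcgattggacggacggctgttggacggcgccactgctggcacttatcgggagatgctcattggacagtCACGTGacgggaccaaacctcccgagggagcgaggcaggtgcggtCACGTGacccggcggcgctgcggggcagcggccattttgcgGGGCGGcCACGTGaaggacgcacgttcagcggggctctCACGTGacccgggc

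Further motifs were searched in the windows of FAS, FADD, CASP8, BBC3, PMAIP1, BCL2L1 and BAX. The interferon response element, taken as a pair of GAAA blocks 2 bases apart (3.02% of all windows), and the cAMP response element TGACGTCA (1.65%) had 0 matches in these 7 windows. The STAT site TTCNNNGAA (6.57%) had a match in CASP8. A loose form of the NF-kB site, GGG and CC with 5 bases between them, matched in FAS, CASP8, BBC3 and PMAIP1, and in 54.4% of all windows. No match says only that these letters are not in this window.

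Because FPKM is scaled to transcript length, levels can be set beside each other within a library. In shControl cells the order by mean was MCL1, PMAIP1, BCL2L1, TNFRSF10B, FADD, TNFRSF10A, FAS, CASP8, BAX and BBC3. The ranges of FADD, TNFRSF10A and FAS overlapped with their neighbours in that order, as did those of CASP8 and BAX, and the other neighbours were separate. In shBLACAT3 cells PMAIP1 (47.0 to 58.2 FPKM) came after BCL2L1 (58.1 to 69.6 FPKM), with ranges that just met, and FAS came after BAX with ranges that overlapped.

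Ratios of FPKM between binding partners described the same libraries from another side. The ratio of PMAIP1 to MCL1 was 0.894, 0.933 and 0.863 in shControl and 0.527, 0.610 and 0.492 in shBLACAT3 replicates 1, 2 and 3, with no overlap. That of BBC3 to MCL1 was 0.0254 ± 0.00076 in shControl and 0.0152 ± 0.0030 in shBLACAT3 cells (SD, n = 3), again with no overlap. The RNA of both BH3-only genes was thus lower per RNA of this guardian. The ratio of the guardians MCL1 and BCL2L1 to each other was 1.51 ± 0.01 and 1.50 ± 0.13, and its groups overlapped. The ratio of BAX to BCL2L1 was 0.117, 0.103 and 0.113 in shControl and 0.119, 0.127 and 0.127 in shBLACAT3 cells, with every shBLACAT3 library above every shControl library by a small margin. These ratios were not tested, since the genes were chosen with results known.

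**Figure D3:**
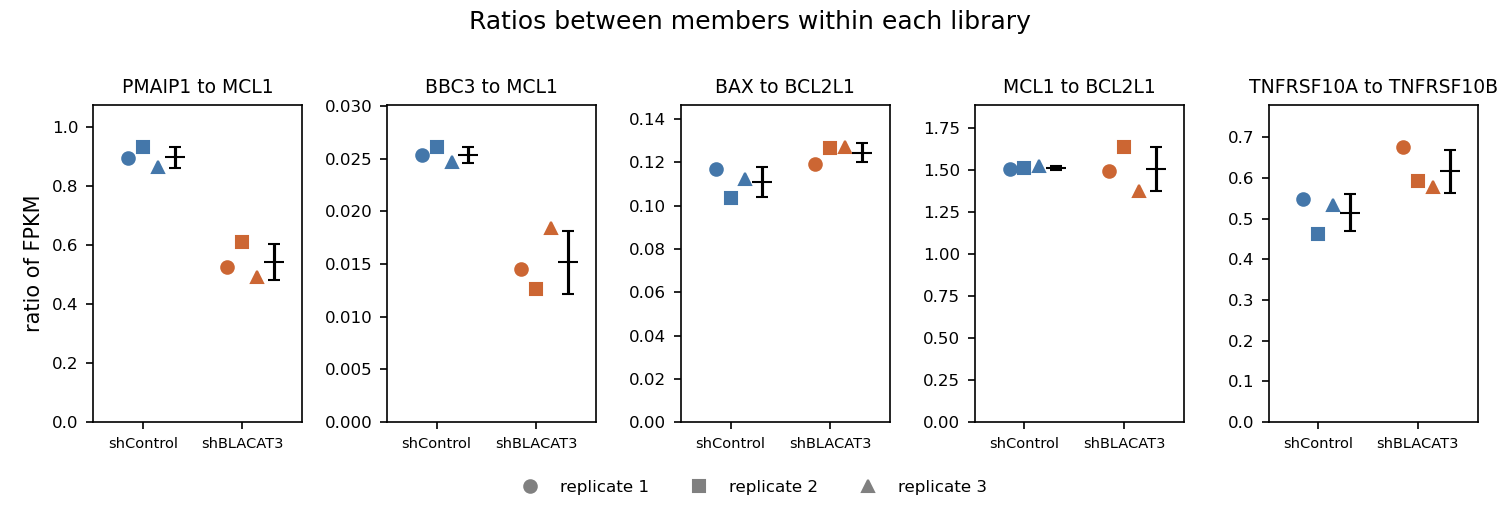
Ratio of FPKM between 2 genes within each library (vertical axes, from 0) for 5 pairs, with marker shapes for replicates 1 to 3 and black bars for the mean and SD of the 3 libraries. The ratios of PMAIP1 and BBC3 to MCL1 are lower in all 3 shBLACAT3 libraries, and that of MCL1 to BCL2L1 overlaps between the groups.

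Other genes of cell death were taken from 9 lists with 81 reported genes, of which 65 were tested. Of these 4 fell and 1 rose, beside 6.80% and 2.57% of all tested genes, and their median log2 fold change was -0.03. An unadjusted p under 0.05 in limma was held by 17 of the 65 genes, beside 2567 of all 10008 tested genes. The counts before adjustment given below for single lists are to be read beside that background. In the list of other death receptors, decoys and ligands 1 of 4 tested genes fell. This was TNFRSF21 (DR6), a receptor with a death domain, which measured 6.09, 6.55 and 5.26 FPKM in shControl and 1.95, 1.54 and 1.84 FPKM in shBLACAT3 replicates 1, 2 and 3, a log2 change of -1.33 (SE 0.10, adjusted p 0.00077 in limma) and larger than that of any of the 10 genes above. The ligand genes FASLG and TNFSF10 were not analysed here.

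In the list of the death-inducing signalling complex and its regulators, without FADD and CASP8, 0 of 11 tested genes passed in limma. An unadjusted p under 0.05 was held by 3 of them, beside 2567 of all 10008 tested genes. The smallest p belonged to TRADD, the adaptor of TNF receptor 1, at 3.55 ± 0.15 and 2.75 ± 0.32 FPKM (SD, n = 3, adjusted p 0.11 in limma), and to TRAF2, a ubiquitin ligase adaptor, at 6.94 ± 0.58 and 9.06 ± 1.61 FPKM (adjusted p 0.16 in limma). CFLAR, the caspase-8 inhibitor c-FLIP, was looked at after its values were seen and measured 5.63, 2.70 and 2.50 FPKM in shControl and 5.53, 5.79 and 4.96 FPKM in shBLACAT3 cells. One shControl library thus lay at the level of the shBLACAT3 libraries (adjusted p 0.22 in limma).

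Of the other BCL2 effectors and BH3-only genes 0 of 6 passed in limma, with 1 under 0.05 before adjustment. This was BAK1, the second pore former, at 12.7 ± 2.44 and 9.78 ± 1.09 FPKM (SD, n = 3, adjusted p 0.19 in limma), and the next smallest p belonged to the BH3-only gene BAD (adjusted p 0.41). The guardians BCL2 and BCL2L2 did not pass either, with 0 of 2 at an unadjusted p under 0.05. BCL2 stood at 1.14 ± 0.03 and 1.41 ± 0.16 FPKM (adjusted p 0.25 in limma). BCL2L2 jumped between libraries of the same group, with 0.47, 11.7 and 0.38 FPKM in shControl and 11.3, 1.39 and 10.6 FPKM in shBLACAT3 replicates 1, 2 and 3. Among 6 tested genes with partial BCL2 homology, BNIP3, a mitophagy receptor with a BH3-like stretch, fell from 33.6 ± 0.47 to 19.0 ± 1.16 FPKM (SD, n = 3, adjusted p 0.00082 in limma).

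Of 11 genes reported from the list of steps after mitochondrial permeabilization 0 passed in limma, with 2 under 0.05 before adjustment. These were HTRA2, a mitochondrial protease that is released in apoptosis, at 5.76 ± 0.31 and 4.35 ± 0.35 FPKM (SD, n = 3, adjusted p 0.055 in limma), and CASP9, the initiator caspase of the apoptosome, at 2.40 ± 0.30 and 1.76 ± 0.22 FPKM (adjusted p 0.13 in limma). Among 5 tested inhibitors of apoptosis genes 0 passed in limma, also with 0 under 0.05 before adjustment. The smallest p belonged to BIRC6 and BIRC3 (adjusted p 0.35 and 0.41). XAF1, an antagonist of XIAP that interferon induces, was under the filter, with 0.79, 0.60 and 0.71 FPKM in shControl, and was listed at 0 in all 3 shBLACAT3 libraries.

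Of 8 genes known to act on the turnover of MCL1 or NOXA protein BTRC, a substrate receptor of a ubiquitin ligase, fell from 7.37 ± 0.02 to 5.34 ± 0.39 FPKM (SD, n = 3, adjusted p 0.023 in limma). Among the fits with 1 library left out, BTRC lost its call without shControl replicate 1, 2 or 3 (0.10, 0.091 and 0.095) or shBLACAT3 replicate 1 (0.058). Of 13 tested and reported transcription factors with textbook targets among the 10 genes, 1 fell and 1 rose. IRF1, an interferon regulatory factor, fell from 5.45 ± 0.47 to 2.91 ± 0.14 FPKM (SD, n = 3, adjusted p 0.0040 in limma). ATF4, a factor of the integrated stress response, rose from 68.8 ± 2.79 to 99.4 ± 9.42 FPKM (adjusted p 0.011 in limma), a call lost without shControl replicate 1 (0.058).

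**Figure D4:**
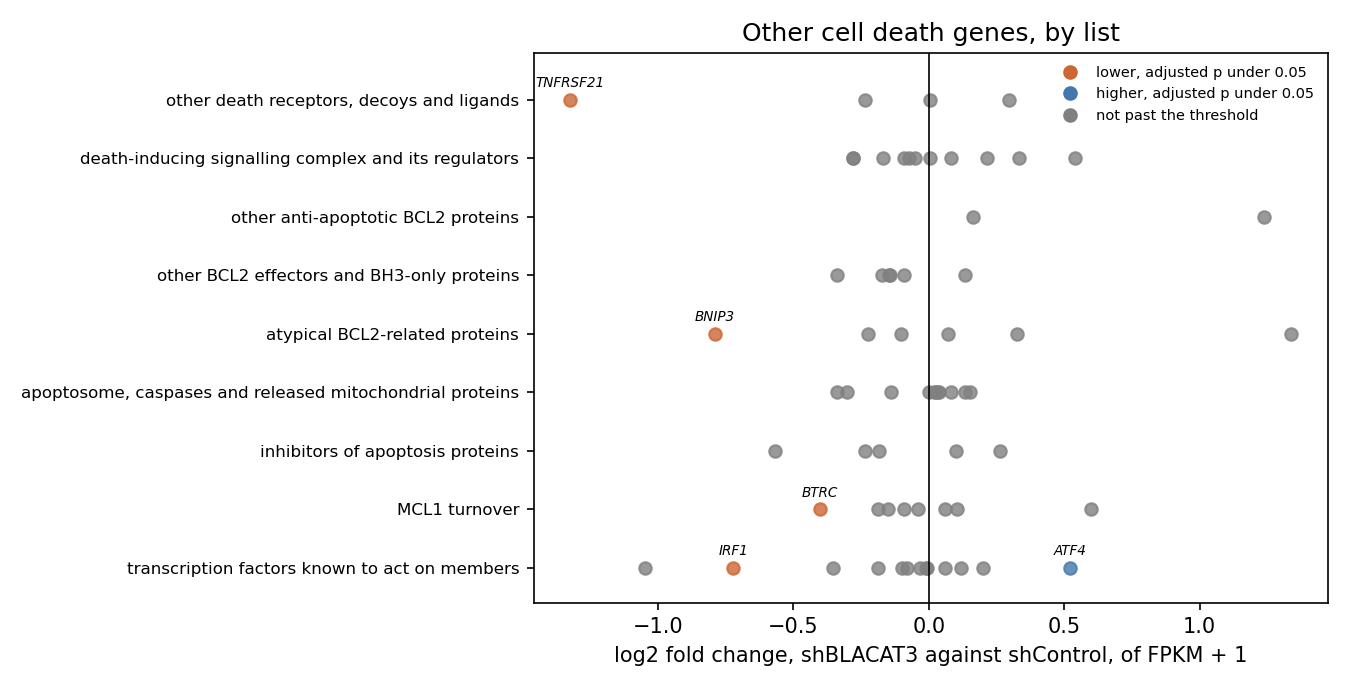
Log2 fold change of FPKM + 1 between shBLACAT3 and shControl cells (horizontal axis) of the tested genes of 9 other cell death lists (rows), 1 point per gene, with genes past an adjusted p of 0.05 coloured and named. TNFRSF21, BNIP3, BTRC and IRF1 are lower, ATF4 is higher, and 60 genes did not pass.

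Which of the 6 calls held depended on the libraries kept. PMAIP1, BBC3 and TNFRSF10B, 3 of the 6, passed whichever library was left out and under the 9 other settings, with highest adjusted p of 0.011, 0.0499 and 0.040 in limma. FAS, FADD and MCL1 lost the call in 5, 8 and 7 of the 15 settings. Without shControl replicate 1, 2 or 3 there were 3 calls among the 10 genes, while the calls over all genes went from 938 to 357, 409 and 421.

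**Figure D5:**
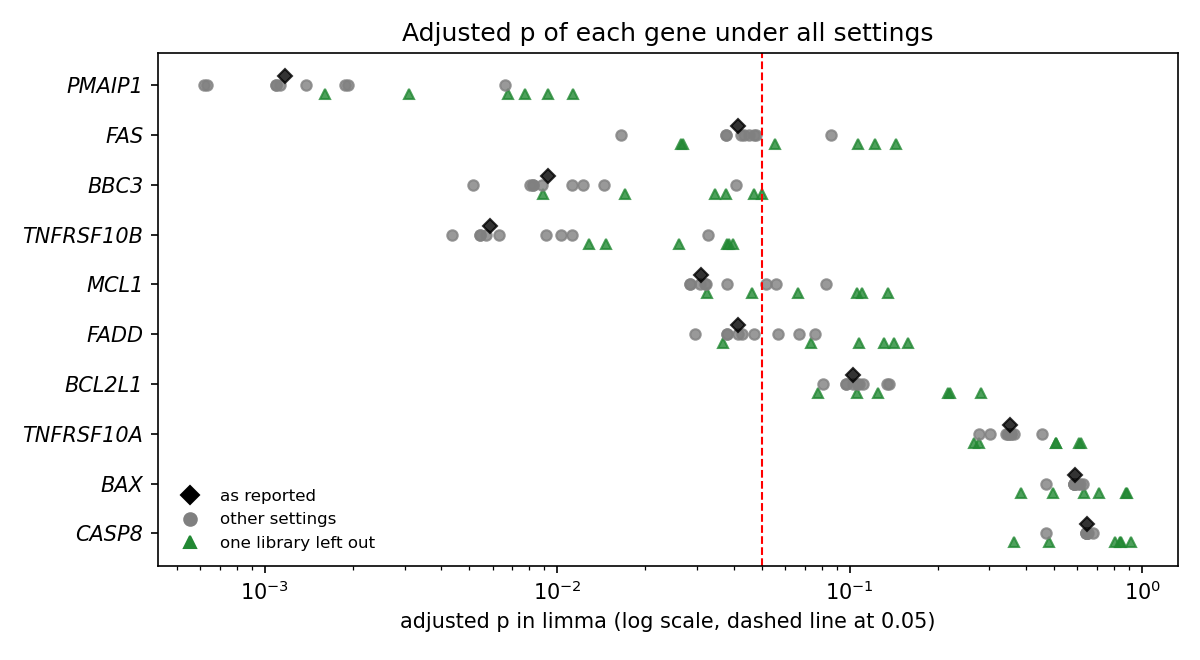
Adjusted p in limma (horizontal axis, log scale) of each gene as reported (black diamonds), under 9 other settings (grey circles) and with each library left out (green triangles), with a dashed line at 0.05. All points of PMAIP1, BBC3 and TNFRSF10B lie left of the line, and those of FAS, MCL1 and FADD fall on both sides.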

How the data were processed

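Total RNA of T24 cells was sequenced with a stranded kit, per the labels' protocols. The submitters' processing notes name cutadapt, HISAT2 2.1.0 and StringTie; build, annotation and strand setting are not given there. The table that the authors deposited has no unit in its header, and FPKM was inferred from its values and the tools named. NC columns were read as shControl and SH columns as shBLACAT3. Of 11081 rows, 11007 were matched to a symbol by Ensembl identifier without its version, and 2 symbols with more than 1 row had their rows summed. The higher group mean was never under 0.5, so genes below 0.5 throughout are not covered.

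The 10008 genes averaging 1 FPKM or more entered limma 3.58.1 (R 4.3.3) as log2(FPKM + 1), with group as the term and a mean-variance trend. Two-sided p-values were adjusted over all of them (Benjamini-Hochberg), at a threshold of 0.05. FPKM holds no counts, so depth is unknown and no counting interval is given. The members and lists were chosen with earlier results of these data known. All 10 members were named; from each list the text names up to 4 genes with the largest change among those past the threshold, or else the 2 with the smallest p, unless said otherwise. The other settings were a replicate block, 0.1 as pseudocount, a minimum mean of 0.1, no filter, median scaling, quantile normalization, no trend, array weights, each library left out, and robust moderation, which was added after the data were seen. Some genes of the lists are not reported here and are left out of the lists' counts. The fit was tested on simulated data with known changes. Promoter windows came from RefSeq (GRCh38.p14), and sequences from chromosome 8 and from windows without an entry are not shown. The GC box, the AP-1 site and the cAMP response element were not among the motifs planned at first, and not every planned motif was searched. Figures were drawn with matplotlib 3.10.9.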

Additional observations from a re-analysis of the deposited data

How the results depend on the processing

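With each library left out in turn, the calls over all genes ran from 357 to 1339, those among the 10 genes from 3 to 5 and those among the other cell death lists from 4 to 9 (5 with all libraries, 9 without shBLACAT3 replicate 3, and 8 with array weights). The log2 change ran from -1.18 to -0.72 in FAS, from -0.31 to -0.25 in FADD and from -0.32 to -0.26 in MCL1, and these 3 genes lost the call in some of these settings, which hold fewer samples. FADD lost its call under median scaling (-0.28, adjusted p 0.067 in limma) and quantile normalization (-0.28, adjusted p 0.057), and MCL1 under quantile normalization (-0.24, adjusted p 0.083) and without the trend (-0.28, adjusted p 0.056); the cause was not tested. Same-numbered libraries of the groups had deviations from their group means that correlated across genes at 0.10, 0.117 and 0.09, and those with different numbers at -0.116 to 0.024. Every library thus correlated best with its own number, a hint from the data and not the design; since not every same-numbered pair was above 0.1 and the labels tie nothing to the numbers, they were not taken to pair the libraries. With the replicate block, 612 of all genes and 3 of the 10 passed, and FAS (-0.98, adjusted p 0.086), FADD (-0.28, adjusted p 0.076) and MCL1 (-0.28, adjusted p 0.051) did not, nor did BTRC of the other lists (-0.40, adjusted p 0.058). On (FPKM + 1), the ratio of BBC3 to MCL1 was 0.0335 and 0.0251 and that of BAX to BCL2L1 0.122 and 0.138 in shControl and shBLACAT3 cells, since the added 1 weighs on low levels. No log2 change of the 10 genes changed sign under any setting. The unknown read depth and the 3 libraries per group limit the precision.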

Other observations

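Some genes near the death receptor and BCL2 family genes in the pathway jumped between libraries of the same group. MYC measured 20.2, 2.93 and 3.37 FPKM in shControl and 2.77, 1.53 and 31.3 FPKM in shBLACAT3 replicates 1, 2 and 3. XIAP, an inhibitor of caspases, measured 8.80, 1.91 and 2.75 FPKM in shControl and 1.77, 2.97 and 1.98 FPKM in shBLACAT3 cells, so that shControl replicate 1 stood apart. BNIP3L, a mitophagy receptor, measured 12.7, 40.8 and 13.4 FPKM in shControl and 50.9, 56.8 and 43.7 FPKM in shBLACAT3 cells, with shControl replicate 2 apart from the other shControl libraries. Every shBLACAT3 library was still above every shControl library for BNIP3L, and its log2 difference of 1.34 did not pass (adjusted p 0.10 in limma). Within the 10 genes of the report the highest value in a group was at most 2.11 times the lowest.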
